A study of Mus musculus with 2 samples.

Results

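This account covers the mouse genes of axon and vessel guidance: 57 of the 8102 genes that could be named on the arrays, read by 71 probes. They were chosen by symbol alone, as the semaphorins, plexins, neuropilins, Eph receptors and ephrins, Unc5 receptors, Robos, Slits and netrins, Dcc and neogenin, the Flrt, contactin, L1, Ncam, Lingo and Dpysl genes, and the Vegf and angiopoietin prefixes. No gene symbol starting Rtn4r and none of Vegfa, Flt1, Flt4, Tek, Angpt1 and Angpt2 was among the named genes, and these are not analysed here. Prefixes also brought in 7 genes of other families (Angptl1, Angptl4, Cntnap1, Cntnap2, Slitrk3, Unc50 and Unc5cl), of which Unc50 encodes a membrane protein unrelated to the netrin receptors.

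The study set EB cells at day 4 against ES cells at day 0, with 1 sample and 1 bead array each. In stem cell work these abbreviations usually stand for embryoid bodies, aggregates in which stem cells differentiate, and for the embryonic stem cells they are made from. Both samples are mouse cells measured as total RNA; their strain, line, sex and culture medium are not given in the sources used here. With no replicate there was no test, and group, culture and array cannot be told apart.

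Guidance genes encode the cues and receptors by which growing axons and sprouting vessels choose their path. Semaphorins act through plexins, the secreted class 3 members with a neuropilin as co-receptor; netrins act through Dcc, neogenin and the Unc5 receptors; Slits act through Robos; and ephrins act through Eph receptors. The same molecules serve cell sorting and migration in the early embryo, and neuropilins also bind vascular endothelial growth factors.

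Signals are bead intensities after quantile normalization of both arrays. The signal floor, 230.0, is the normalized signal at which the deposited EB detection score passed 0.99. Differences are log2 of EB over ES. The bead error beside a difference is its standard error from the beads of both arrays, and the bead interval is the 95% interval made from it; neither holds any spread between cultures. A gene was counted as higher or lower past 2-fold if its brighter signal reached the floor. Where the dimmer signal lay under the floor, the fold is given against the floor, as "at least". A median of 37 beads lay behind a signal in EB and 38 in ES, and the median raw signal was 173.3 and 173.9. The number of arrays limits the precision.

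Of the 57 guidance genes 25 (43.9%) reached the floor in at least 1 array, beside 47.7% of all named genes, and 32 in neither. Past 2-fold 5 were higher in EB (Nrp1, Unc5c, Plxna2, Dpysl2 and Ntn3) and 2 were lower (Angptl4 and Robo4). Over all 3867 named genes above the floor 3.72% were higher and 5.35% were lower by the same rule. Past 4-fold 2 guidance genes were higher (Nrp1 and Unc5c) and 1 was lower (Angptl4), beside 0.595% and 1.03% of all named genes. These counts use measured signals; the EB signal of Angptl4 lay under the floor, and against the floor its log2 difference was -1.72, short of 4-fold. In bulk RNA, fewer cells that express a gene and less RNA of it per cell cannot be told apart.

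A gene can reach the floor through the array in which it is high, so the differences are also given without that choice. Among the 16 guidance genes above the floor in both arrays, 13 had a positive difference and the median log2 difference was 0.60, with quartiles of 0.23 and 0.89. Over all 3313 named genes above the floor in both arrays the median was 0.06, with quartiles of -0.23 and 0.33, and 55.7% were positive. With no filter the median was 0.14 over the 57 guidance genes and 0.02 over the 8102 named genes, and 39 of the 57 were positive, beside 53.2% of all. Above the floor were 21 guidance genes in EB and 20 in ES, of which 5 were so in EB alone and 4 in ES alone; that is 8.77% and 7.02% of the 57, beside 3.64% and 3.20% of all named genes.

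**Figure D1:**
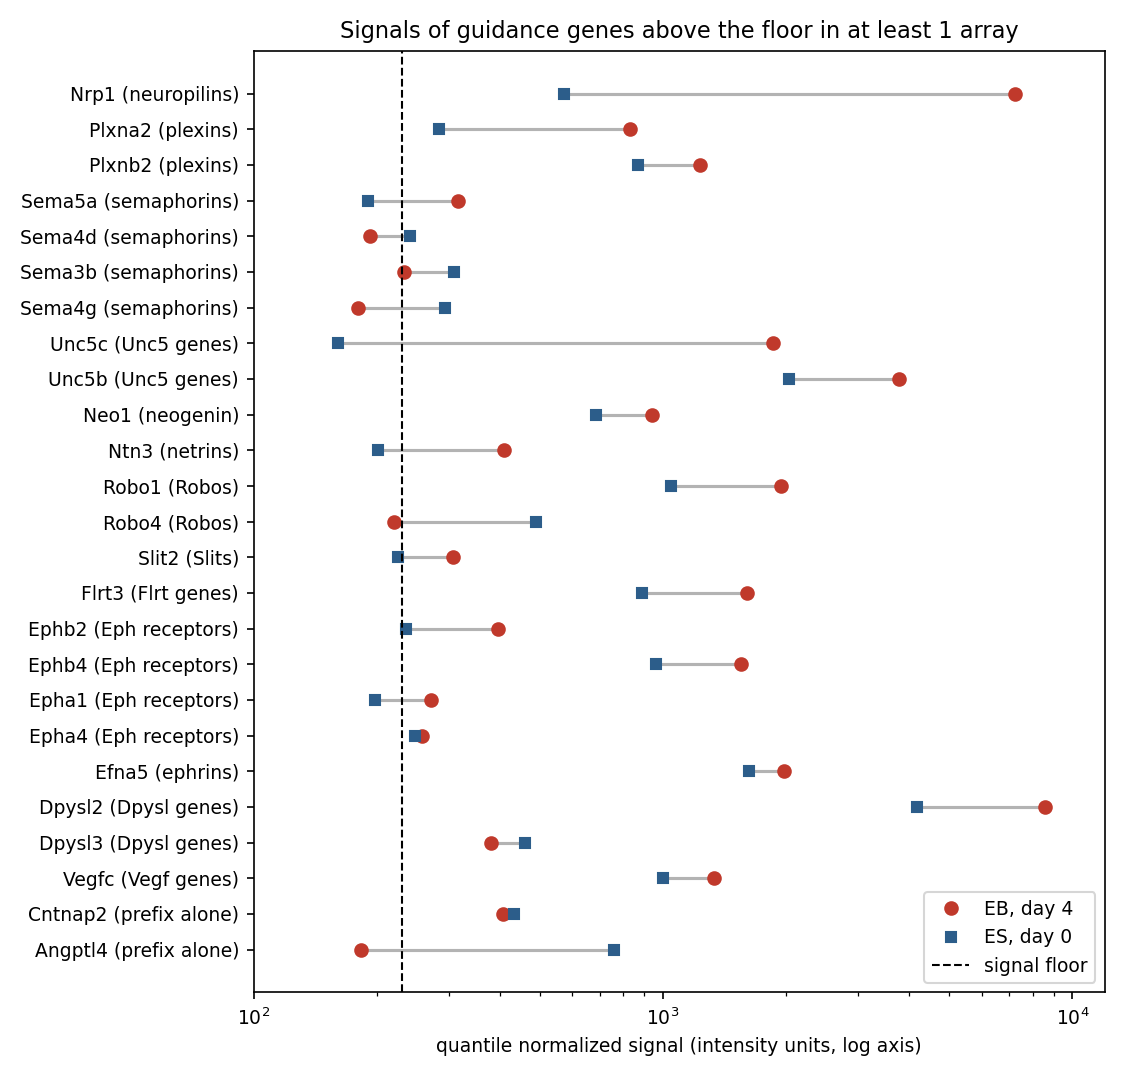
Quantile normalized signal, on a log axis, of the 25 guidance genes above the floor in at least 1 array, 1 gene a line with its family in brackets, in EB (circles) and ES (squares). Nrp1 and Unc5c show the widest gaps with EB higher and Angptl4 the widest with ES higher; the dashed line is the signal floor of 230.0.

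The start regions of the genes past 2-fold are shown because these genes lead the comparison and the regions differ in their content of CG dinucleotides, the substrate of DNA methylation. RefSeq promoter windows (GRCm38.p6, 250 bases before to 50 after the gene start) were matched for 5 of the 7; Dpysl2 and Angptl4 had no entry. Each is printed as that table gives it, in lower case with every CG in capitals:
Nrp1, chr8:128358823-128359122, plus strand: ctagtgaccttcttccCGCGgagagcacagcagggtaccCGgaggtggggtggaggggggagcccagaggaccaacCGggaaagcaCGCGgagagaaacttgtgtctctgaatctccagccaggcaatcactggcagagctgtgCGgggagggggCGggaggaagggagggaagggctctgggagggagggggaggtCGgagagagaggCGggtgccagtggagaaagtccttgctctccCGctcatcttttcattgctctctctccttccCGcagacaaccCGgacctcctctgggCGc
Unc5c, chr3:141465314-141465613, plus strand: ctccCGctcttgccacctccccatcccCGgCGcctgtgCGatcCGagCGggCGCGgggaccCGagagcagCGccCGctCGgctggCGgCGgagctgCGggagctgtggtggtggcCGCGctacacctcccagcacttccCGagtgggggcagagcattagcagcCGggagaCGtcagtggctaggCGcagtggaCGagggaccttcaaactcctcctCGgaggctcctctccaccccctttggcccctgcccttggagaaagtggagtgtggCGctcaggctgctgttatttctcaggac
Plxna2, chr1:194619579-194619878, plus strand: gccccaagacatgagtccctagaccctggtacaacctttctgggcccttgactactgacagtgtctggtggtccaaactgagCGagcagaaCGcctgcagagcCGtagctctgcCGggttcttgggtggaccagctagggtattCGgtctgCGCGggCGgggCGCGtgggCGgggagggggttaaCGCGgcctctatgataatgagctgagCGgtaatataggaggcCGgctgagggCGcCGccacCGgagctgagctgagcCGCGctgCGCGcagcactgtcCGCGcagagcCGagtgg
Ntn3, chr17:24209338-24209637, minus strand: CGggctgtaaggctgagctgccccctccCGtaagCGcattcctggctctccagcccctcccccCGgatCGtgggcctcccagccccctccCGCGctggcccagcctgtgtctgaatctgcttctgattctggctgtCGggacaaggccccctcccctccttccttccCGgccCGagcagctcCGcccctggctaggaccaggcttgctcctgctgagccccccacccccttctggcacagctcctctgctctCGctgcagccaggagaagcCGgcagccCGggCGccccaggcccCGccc
Robo4, chr9:37401722-37402021, plus strand: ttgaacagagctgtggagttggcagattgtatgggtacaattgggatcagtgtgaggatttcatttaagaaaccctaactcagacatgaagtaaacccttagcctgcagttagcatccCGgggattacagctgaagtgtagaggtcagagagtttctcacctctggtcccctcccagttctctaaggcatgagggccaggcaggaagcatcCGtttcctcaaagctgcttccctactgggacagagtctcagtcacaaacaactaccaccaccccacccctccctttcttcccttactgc

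The 4 windows of higher genes held 14 CG in Nrp1, 24 in Unc5c, 25 in Plxna2 and 16 in Ntn3, and that of Robo4, lower in EB, held 2. Among all 32851 RefSeq windows 36.3% held at least as many as Nrp1, 20.0% as many as Unc5c, 18.4% as many as Plxna2, 33.0% as many as Ntn3 and 85.9% as many as Robo4; the median was 7. Over the 58 windows of the 46 guidance genes that matched, the median was 15.5. The GC box (GGGCGG or its reverse complement CCGCCC) occurred once in Nrp1, in 2 copies each in Plxna2 and Ntn3, and in neither Unc5c nor Robo4; 35.7% of all windows and 32 of the 58 held at least 1. The E-box CANNTG, the same on both strands, occurred in 2 copies in Robo4 and in none of the other 4 windows, against 72.3% of all windows and 33 of the 58. No window of the 5 held a TATA box (TATAAA or TTTATA), which 13.6% of all and 2 of the 58 held. These are letter matches and describe neither binding nor methylation in these cells.

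Among guidance genes above the floor in both arrays, the largest difference in the main values was that of a neuropilin. Nrp1 (target scl0018186.1_241-S), the co-receptor for class 3 semaphorins and vascular endothelial growth factor, had a signal of 7231 in EB and 574 in ES by its brighter probe. It was 12.6-fold higher in EB, a log2 difference of 3.66 (bead error 0.09). Its other probe had signals of 4825 in EB and 393 in ES and a log2 difference of 3.62. Both probes lay above the floor on both arrays, so the fold of Nrp1 is measured and not a bound. Nrp2, the sister co-receptor, which binds Vegfc, stayed under the floor on both arrays with each of its 3 probes (log2 differences from 0.07 to 0.27), at an EB score of 0.968 for the brightest.

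Plxna2, a plexin that signals together with neuropilins, had a signal of 832 in EB and 284 in ES. It was 2.93-fold higher in EB, with a log2 difference of 1.55 (bead error 0.09). Plxnb2, a receptor for class 4 semaphorins, had a signal of 1231 in EB and 867 in ES, a log2 difference of 0.51 that is under the 2-fold rule. Plxna1 and Plxnc1 lay under the floor in both arrays. Both measurable plexins were thus brighter in EB, with Plxna2 past the rule and Plxnb2 not.

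None of the 10 semaphorin genes, the ligands of these receptors, passed 2-fold, and 6 lay under the floor on both arrays (Sema3d, Sema4c, Sema5b, Sema6a, Sema6c and Sema7a). Sema5a, a transmembrane semaphorin, had signals of 316 in EB and 190.2, under the floor, in ES, and was at least 1.37-fold higher in EB (log2 difference 0.73, bead error 0.12). The other 3 had negative differences, and Sema4g and Sema4d reached the floor in ES alone, which set their sign. Sema4g, a class 4 transmembrane semaphorin, had 179.5 in EB, under the floor, and 293.5 in ES, at least 1.28-fold lower in EB. Sema4d, a ligand of B plexins, had 192 in EB, also under the floor, and 241 in ES, at least 1.05-fold lower. Sema3b, a secreted class 3 semaphorin, had 233 in EB, just over the floor, and 308 in ES, 1.32-fold lower with a log2 difference of -0.40. With the series value table all 4 passed 2-fold, at log2 differences of 2.55 for Sema5a, -2.57 for Sema4g, -1.31 for Sema4d and -1.27 for Sema3b. There 13.6% of all named genes were higher and 12.1% lower. Of the class 3 ligands that use neuropilins only Sema3b and Sema3d were named here.

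Among the netrin receptors, Unc5c was the second gene with a difference over 3 on the log2 scale. Unc5c (target scl022253.17_156-S), a receptor that turns netrin into a repellent, had a signal of 1859 in EB and 161 in ES, where it lay under the floor. It was at least 8.08-fold higher in EB; its measured log2 difference was 3.53 (bead error 0.10). Because its ES signal gives only a bound, Unc5c and Nrp1 have no fixed order: Unc5c had 4.17 and Nrp1 3.81 with normexp background correction. Unc5b, a netrin receptor known from vessels, was above the floor on both arrays, at 3764 in EB and 2032 in ES, 1.85-fold higher (log2 difference 0.89, bead error 0.06). Its 95% bead interval, 0.77 to 1.01, includes the limit of 1. Unc5d, a receptor that also binds Flrt proteins, lay under the floor in both arrays.

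Neo1 encodes neogenin, a receptor for netrins and repulsive guidance molecules; its signal was 939 in EB and 686 in ES, a log2 difference of 0.45. Dcc, the receptor through which netrin attracts axons, was under the floor on both arrays, with an EB detection score of 0.934. Unc5b and Neo1, the netrin receptors above the floor in both arrays, thus had positive differences under the 2-fold rule.

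Ntn3, a secreted netrin, was just past the limit by its brighter probe, with a signal of 408 in EB and 202, under the floor, in ES. That is at least 1.77-fold higher in EB, from a measured log2 difference of 1.02 (bead error 0.14). Its second probe had 314 in EB and 239.55 in ES, a log2 difference of 0.39, and did not pass. The probes of Ntn3 disagreed on the call, which was also lost by their mean (0.70), with signals raised to the floor (0.83), and without quantile normalization (0.98 from unscaled signals). Ntng1 and Ntng2, membrane-anchored netrins that do not use Dcc, lay under the floor in both arrays, Ntng1 at an EB score of 0.989, just under the limit.

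The measurable Robo receptors had differences of opposite sign. Robo4, known as the Robo of vessel endothelium, had a signal of 219.8 in EB, under the floor, and 488 in ES. It was at least 2.12-fold lower in EB, with a measured log2 difference of -1.15 (bead error 0.12). Its 95% bead interval, -1.39 to -0.91, includes the 2-fold limit. Robo1, which steers axons away from Slit, had 1942 in EB and 1048 in ES, a log2 difference of 0.89 (bead error 0.08) that stayed under the rule. Robo2 and Robo3 lay under the floor in both arrays. Slit2, a secreted Robo ligand, had 307 in EB and 225 in ES, at least 1.33-fold higher in EB with a log2 difference of 0.45.

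Flrt3 is a leucine-rich membrane protein that binds Unc5 receptors and Robo1 and is made in the early embryo. Its signal was 1605 in EB and 886 in ES, 1.81-fold higher with a log2 difference of 0.86 (bead error 0.08). Its second probe was under the floor on both arrays (log2 difference 0.39), as were Flrt1 and Flrt2. Flrt3, Robo1 and Unc5b were the 3 guidance genes nearest to the 2-fold limit from below, and Ntn3, Dpysl2 and Robo4 the 3 nearest from above. Over 391 named genes with 2 probes above the floor the difference between the probes of a gene had a standard deviation of 0.40, wider than the distance of any of these 6 genes from the limit. The 95% bead intervals of these 6 genes, and those of Ephb2 and Sema4g, include the limit.

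**Figure D2:**
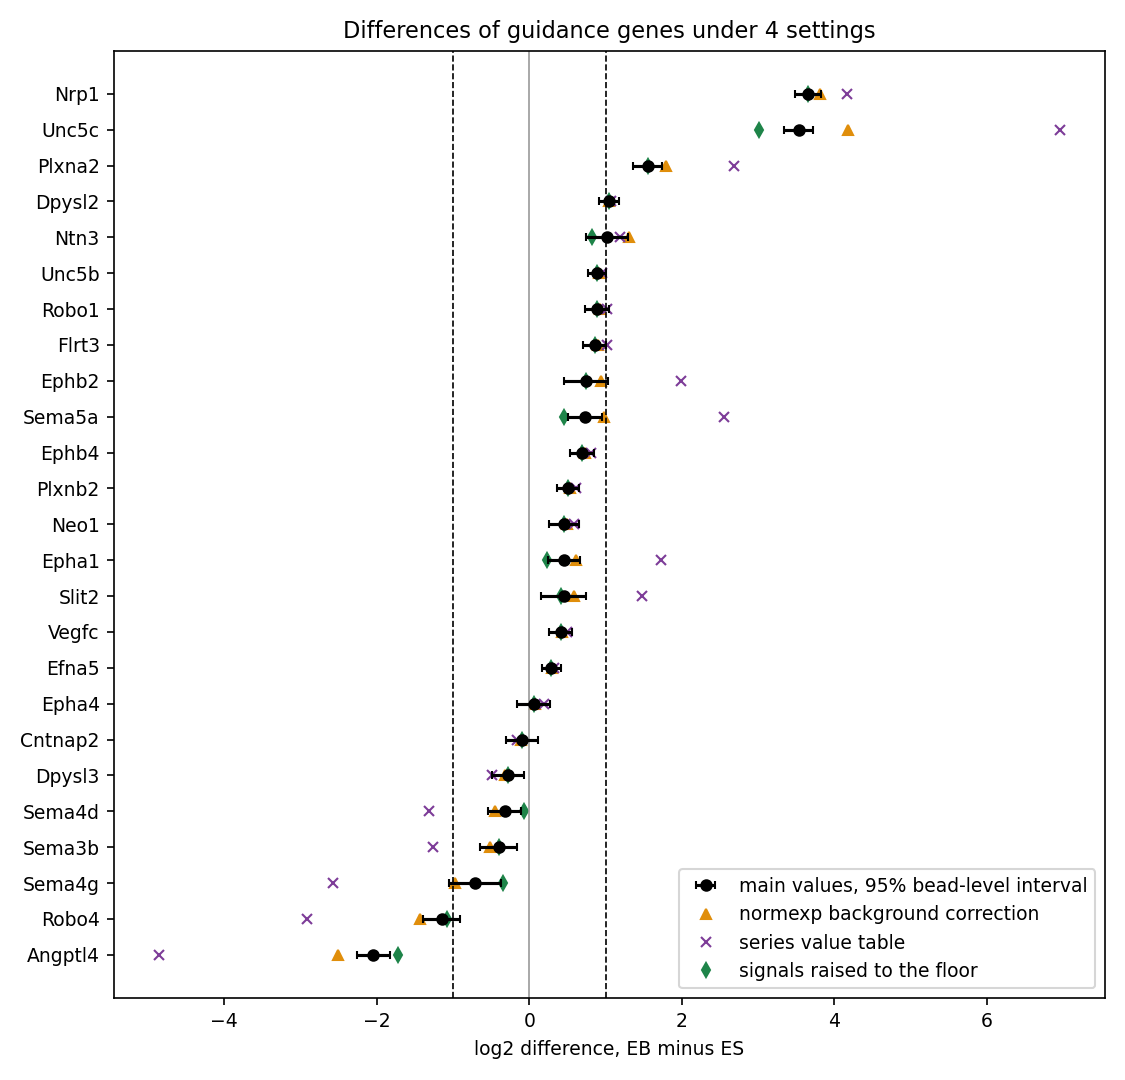
Log2 difference, EB minus ES, of the 25 guidance genes above the floor in at least 1 array, in the main values (black circles, with the 95% bead interval) and under 3 other settings. Dashed lines mark 2-fold; Nrp1, Unc5c, Plxna2, Dpysl2, Robo4 and Angptl4 lie beyond them under all 4, while the series value table carries several dim genes such as Sema5a, Ephb2 and Sema4g across.

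None of the 5 named Eph receptors and neither of the 2 named ephrins passed 2-fold in the main values. Both ephrins were of the A class, and no B ephrin was named. Ephb4, Ephb2 and Epha4, above the floor in both arrays, had positive differences, that of Epha4 turning to -0.02 without quantile normalization. Epha1 reached the floor in EB alone, which set its sign. Ephb4, the Eph receptor of veins, had 1547 in EB and 959.5 in ES, 1.61-fold higher (log2 difference 0.69, bead error 0.08). Ephb2, a receptor for B ephrins, had 395 in EB and 235 in ES, 1.68-fold higher with a log2 difference of 0.75, from 13 beads in EB and 24 in ES. The B receptors, whose ligands span the membrane, thus differed by less than 2-fold each in the main values, while Ephb2 had 1.98 with the series value table. Epha1, a receptor for A ephrins, had 271 in EB and 198, under the floor, in ES, a log2 difference of 0.45, and 1.73 with the series value table. Epha4, which binds ephrins of both classes, had 257 in EB and 248 in ES, a log2 difference of 0.06. Epha7 lay under the floor on both arrays. Of the ligands, which the A class anchors in the membrane by a lipid, Efna5 had 1979 in EB and 1622 in ES, 1.22-fold higher. Efna2 lay under the floor in both arrays.

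The Dpysl genes encode cytosolic proteins that bind tubulin and relay semaphorin signals to the growth cone. Dpysl2 had 8578 in EB and 4173 in ES, 2.06-fold higher, with a log2 difference of 1.04 (bead error 0.07). The 95% bead interval of Dpysl2, 0.91 to 1.17, includes the limit, and its second probe was under the floor on both arrays (log2 difference -0.08), so its call rests on 1 probe. Dpysl3 had 379 in EB and 459 in ES, a log2 difference of -0.27. These paralogs thus had differences of opposite sign, with Dpysl3 under the rule.

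Vessel genes outside the receptors above were few. Vegfc, the growth factor of lymphatic vessels, had 1330.1 in EB and 1000.25 in ES, 1.33-fold higher with a log2 difference of 0.41. Angptl4, an angiopoietin-like protein that inhibits lipoprotein lipase and is no ligand of the angiopoietin receptor, had 183 in EB, under the floor, and 757 in ES. It was at least 3.29-fold lower in EB, with a measured log2 difference of -2.05 (bead error 0.11). Angptl1 lay under the floor in both arrays. Angptl4 came in by its prefix, and without such genes Robo4 was the 1 lower member.

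Neural adhesion genes were mostly under the floor. All 3 contactins (Cntn1, Cntn2 and Cntn4), all 4 genes of the L1 family and Ncam (Chl1, Nrcam, Ncam1 and Ncam2) and Lingo4 lay under the floor in both arrays. Cntnap2, a contactin-associated protein of neurons that shares the prefix, was above it, at 406 in EB and 433 in ES, a log2 difference of -0.09. Over the 32 guidance genes under the floor on both arrays, EB detection scores ran from 0.00749 to 0.989 with a median of 0.705, and log2 differences from -0.51 to 0.39. A signal under the floor does not show that a gene is silent.

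By role, 12 of the 21 receptor genes reached the floor, 9 of them in both arrays, beside 47.7% of all named genes in at least 1. Of these 12, 3 were higher and 1 was lower past 2-fold, beside 3.72% and 5.35% of all named genes above the floor. Of 17 ligand genes 8 reached the floor, 3 of them in both arrays, and 1 (Ntn3) was higher and 0 were lower. The second probe of Ntn3 did not pass the rule. Genes that reached it in 1 array alone had their sign set by that choice, so signs are not tallied by role. Of 10 adhesion genes 1 (Flrt3) reached the floor.

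**Figure D3:**
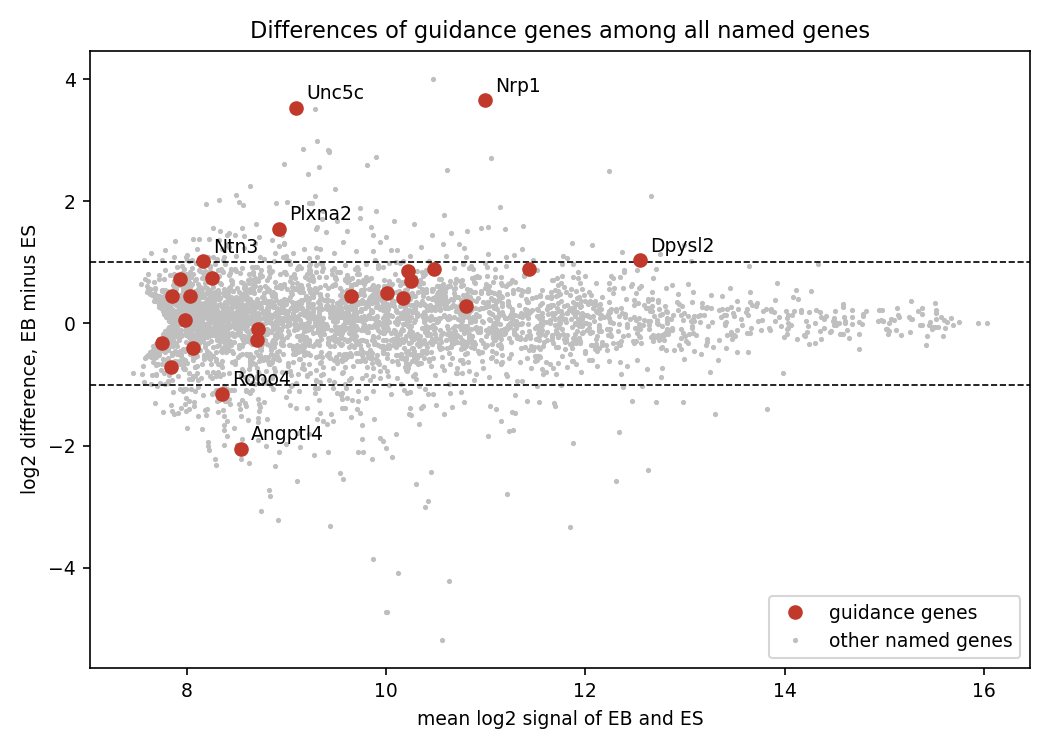
Log2 difference, EB minus ES, against mean log2 signal for the 3867 named genes above the floor in at least 1 array; guidance genes are large points, labelled where past 2-fold (dashed lines). Nrp1 (3.66) and Unc5c (3.53) lie near the upper edge of all genes.

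Of the 13 guidance genes with several probes, 6 had none above the floor, 5 had 1 and 2 had 2 (Nrp1 and Ntn3). The probes of Nrp1 differed by 0.04 on the log2 scale and those of Ntn3 by 0.63. For Dpysl2, Efna5, Ephb2, Flrt3 and Cntnap2 the second probe was too dim to check the first.

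**Figure D4:**
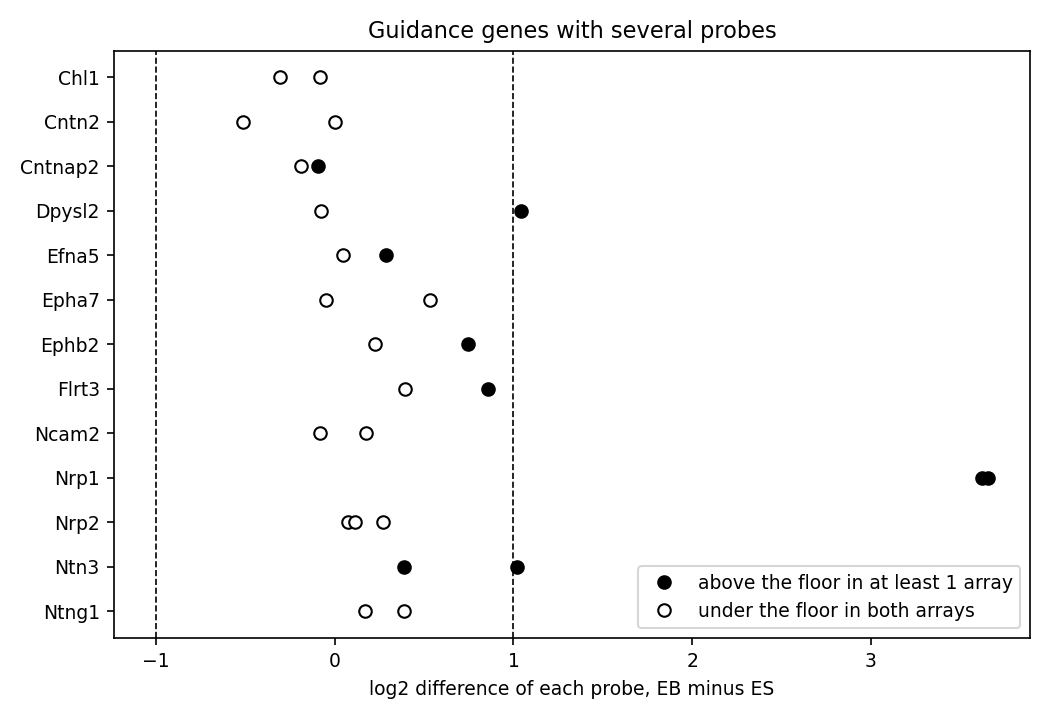
Log2 difference, EB minus ES, of each probe of the 13 guidance genes with several probes; filled points lie above the floor in at least 1 array, open points under it in both, and dashed lines mark 2-fold. The probes of Nrp1 coincide near 3.6, and those of Ntn3 lie on either side of the limit.

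Genes that carry guidance signals inside the cell, with some further cues and co-receptors, were listed by role: 103 symbols, of which 59 were named and 31 reached the floor. Of these 31, 2 were higher and 1 was lower past 2-fold, beside the 3.72% and 5.35% of all named genes, and the median log2 difference was 0.20 against 0.06 over all. Gpc1, a heparan sulfate proteoglycan that binds Slit, had a signal of 3400 in EB and 1153 in ES, 2.95-fold higher. Nfatc1, a transcription factor activated by calcium, had 371 in EB and 175, under the floor, in ES, at least 1.61-fold higher; its call was lost with signals raised to the floor, with the floor raised 2 times and with the floor in both arrays. Enah, an actin regulator that acts under Robo and netrin receptors, had 1309 in EB and 4418 in ES, 3.37-fold lower, with a log2 difference of -1.75. Gpc1 and Enah were read well above the floor in both samples and differed in opposite directions.

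Markers of the cells in which guidance genes are best known were read by the same floor, which 47.7% of all named genes reached. Of 7 named endothelial markers 4 reached the floor, with Erg, Fli1 and Emcn under it on both arrays. Past 2-fold in measured signals 2 were lower (Pecam1, and Mmrn2 with a bound of at least 1.83-fold) and 0 were higher. The summed signal of the 7, with the unsubtracted background of the dim ones, was 2222 in EB and 2617 in ES. Egfl7, an endothelial secreted factor, had 901 in EB and 481 in ES, under the rule. Robo4 was lower in EB together with Pecam1, at 329 in EB and 833 in ES, and Mmrn2, at 160 in EB, under the floor, and 421 in ES. Their part in the result for Robo4 was not tested.

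Of 11 neuronal markers 5 reached the floor and 0 were higher past 2-fold. Gap43, a growth cone protein, was 3.78-fold lower in EB (515 in EB, 1946 in ES). Nefm and Elavl4 reached the floor in EB alone, each at least 1.03-fold higher (measured log2 differences 0.54 and 0.47). Elavl3 and Tubb3 reached it in ES alone, at least 1.27-fold and 1.15-fold lower in EB (measured log2 differences -0.61 and -0.21). Dcx, Map2, Snap25, Syt1, Nefl and Rbfox3 lay under it in both arrays. The summed signal of the 11 markers, 2392 in EB and 3928 in ES, holds Gap43 and the unsubtracted background of the genes under the floor. Of 4 neural progenitor markers 2 reached the floor. Nes had 416 in EB and 415 in ES, and Sox2 had 204 in EB, under the floor, and 493 in ES, at least 2.14-fold lower. Sox2 is also a gene of pluripotent cells, so its difference is not particular to neural progenitors. Of 2 neural crest markers Tfap2a reached it, in ES alone and under the rule, and none of 3 glial markers did. In EB the named neuronal and glial markers other than Gap43 were near or under the floor, which does not show that they were silent. The part of such cells in the differences of Nrp1 and Unc5c was not tested.

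Markers of pluripotency, of the primitive streak and mesoderm, and of endoderm were listed with earlier results of these data known. Of 9 pluripotency markers all reached the floor and 7 were lower past 2-fold in EB, and their summed signal was 4846 in EB and 42954 in ES. Of 14 listed markers of the primitive streak and mesoderm 3 were named (Lhx1, Eomes and Fst). All 3 were higher, with a summed signal of 4959 in EB and 703 in ES. Gata4 was the 1 of 2 named endoderm markers past the rule in measured signals, at 452 in EB and 173, under the floor, in ES. Against the floor it was at least 1.97-fold higher in EB, short of 2-fold. The part of these cell states in the guidance differences was not tested.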

How the data were processed

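Total RNA of 1 EB sample (day 4) and 1 ES sample (day 0) was hybridised to 1 bead array each. The deposited intensity of a probe is the mean over its beads, per the file headers from BeadStudio 2.3.41 with normalization set to none, although the sample titles call the data normalised; the submitters' processing notes also name RMA and limma, with no role given. The deposited detection score was read from the EB file. The series value table, also intensity, came with no account of how the authors made it and was used as an alternative setting. The deposited bead spread was read as a standard error, since its slope on the number of beads was -0.47 in EB and -0.44 in ES on log scales.

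The intensities were quantile normalized over all 46643 probes, without background subtraction, in Python 3.11.15 (pandas 2.3.3, numpy 2.4.6); normexp used limma 3.58.1 in R 4.3.3. Zero-padded numbers of 10000 or more within target names were taken for NCBI Gene IDs, and 9796 of 11857 such probes (82.6%) matched a RefSeq table of GRCm38.p6, used for names. The probe with the highest mean log2 signal stood for a gene. The same floor served both arrays, because a score exists for EB alone, and detection asked that the brighter of the signals reach it. The text names every gene past 2-fold, the leading genes of each family, and list genes past 2-fold. Genes and lists were chosen with earlier results of these data known. The steps were tested on simulated data in which genes bright in ES were changed by more than 2-fold. Changes in genes dim in ES, and changes near the limit, were not covered. Bead-level errors cover measurement within an array only.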

Additional observations from a re-analysis of the deposited data

How the results depend on the processing

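No paired analysis was possible because there was 1 sample a group, and none could be left out. The main values were 5 guidance genes higher and 2 lower in EB, a median log2 difference of 0.45, and 2 signalling genes higher and 1 lower. The series value table gave 11, 5, 0.81 and, for signalling genes higher, 7, beside 13.6% of all named genes higher and 12.1% lower with a median of 0.09; the cause was not tested. A floor passed in both arrays left 3 guidance genes higher and 0 lower. Over the 3313 named genes that passed it, 3.11% were higher and 4.04% lower. Of the signalling genes 1 was higher and 1 lower. A 1.5-fold rule gave 11 guidance genes higher and 3 lower, beside 12.4% and 12% of all named genes. It gave 8 signalling genes higher and 2 lower. A 4-fold rule gave 2 guidance genes higher and 1 lower, beside 0.595% and 1.03% of all named genes. It gave 0 signalling genes higher and 0 lower. The median was 0.20 (0.1965) with the looser detection by EB score or ES array median, and 0.77 with a floor raised 2 times, which left 1 signalling gene higher, as did signals raised to the floor. Without the 7 genes that share a prefix alone, an alternative added after seeing the data, 1 guidance gene was lower. The direction of the 7 genes past 2-fold held in the main values and 6 settings of scaling, background and probe choice: Nrp1 from 3.64 to 4.17, Unc5c from 3.01 to 6.95, Plxna2 from 1.52 to 2.68, Dpysl2 from 1.04 to 1.11, Ntn3 from 0.70 to 1.30, Robo4 from -2.91 to -1.09 and Angptl4 from -4.85 to -1.72. The value farthest from 0 came from the series value table for Nrp1, Unc5c, Plxna2, Robo4 and Angptl4.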
